A study of Mus musculus with 118 samples.

Results

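Corticotropin-releasing hormone (Crh), its binding protein (Crhbp) and its receptor Crhr1 were followed through single somatostatin-positive (SOM+) cells of the mouse neocortex. They are 3 of the 23998 gene symbols in the count table, and were selected on these same cells, for a difference of Crh and Crhbp between L5 and L4 and for how seldom both were read in 1 cell. Since the choice read all 3 genes by area and layer, their levels are given throughout as a description, and none of them as independent support.

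The peptide encoded by Crh is best known as the hypothalamic signal that starts the hormonal stress response, but cortical interneurons also make it and release it locally. It acts on Crhr1, a receptor coupled to the stimulatory G protein and cyclic AMP. The related receptor Crhr2 prefers the urocortins (Ucn, Ucn2 and Ucn3), peptides of the same family. Crhbp is a secreted protein that binds CRH and urocortin and keeps them from the receptors. A cell that makes the peptide, a cell that makes the binding protein and a cell that carries the receptor need not be the same cell.

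RNA was drawn from single tdTomato-labelled cells of adult SOM-Cre/Ai9 mice by Patch-seq (after a patch-clamp recording, the cytosol is drawn into the pipette and sequenced), in L4 and L5 of primary visual (V1) and somatosensory (S1) cortex. Cre under control of the somatostatin gene marks every cell that expresses the gene or did so earlier, so the label is not limited to cells with current expression. All groups share this genotype and no treatment was given. Groups were defined by area and layer, and they also differed in the dates that the labels give for their cells. Of the labelled cells, 9 were left out and the others were used, each with 1500 or more genes above 0, no more Slc17a7 than Gad1 plus Gad2 reads and at least 1 Sst read. L4 contributed 42 cells in V1 and 34 in S1, and L5 contributed 17 in V1 and 16 in S1. Total counts on genes ran from 97904 to 3295232 per cell. The closest cells at the filters had 1978 genes when kept and 1153 when left out, and the lowest Sst count in a kept cell was 22.

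The labels name no animal. Each area and layer therefore counted as a single sample, and cells were not tested against each other. Levels are counts per 1000000 reads on genes (CPM), and means are of log2(CPM + 1). Label dates were numbered 1 to 9 in order. All L5 cells fell on dates 3 to 6, together with some L4 cells. Differences were also taken within each date that held 2 or more cells of both groups, and their SD over dates is the spread given here. The study names fewer mice than there are dates, so dates may share an animal. Intervals cover counting error only, since reads were amplified and carry no molecular identifiers.

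Marker genes were read beside the SOM label. Gad1, which makes GABA, was read in every kept cell, Gad2 in all but 2, the NMDA receptor subunit gene Grin3a in all but 5, and the lineage factors Sox6 and Lhx6 in 95 and 88. Vip, the defining gene of another interneuron class, was read in 3 cells at a pooled 0.057 CPM. Slc17a7, of glutamatergic cells, was read in 22 at a pooled 4.82 CPM, and Pvalb, of another interneuron class, in 36 at 20.5 CPM. Sst itself was required by the filter.

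All 3 genes lie apart from other annotated genes in GENCODE on GRCm38, the build of the deposited alignments. Crh occupies chromosome 3 from 19693401 to 19695396 on the minus strand and has 2 exons. Crhbp occupies chromosome 13 from 95431371 to 95444924 on the minus strand, with 7 exons in its longest coding transcript. Crhr1 occupies chromosome 11 from 104132855 to 104175523 on the plus strand, with 13 exons. The stretch of Crh that encodes the released peptide is shown because it is the part of the message through which the ligand acts. It lies wholly in the coding part of exon 2, at chr3:19693916-19694050 on the minus strand, with the codons of the cleavage site before the peptide and of the amidation and cleavage signal after it in capitals. Between them lie the 41 residues of the peptide, from a precursor of 187.
Crh peptide: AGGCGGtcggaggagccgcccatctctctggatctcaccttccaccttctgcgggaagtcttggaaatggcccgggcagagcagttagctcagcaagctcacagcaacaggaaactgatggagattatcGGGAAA

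Crh, the ligand, was read in about as large a share of L5 cells in both areas and hardly at all in L4. In V1 L5 it was read in 9 of 17 cells (52.9%, 95% Clopper-Pearson interval 27.8 to 77.0), with a lowest value of 0, a median of 0.42 CPM and a highest of 1407 CPM. In S1 L5 it was read in 9 of 16 cells (56.2%, 29.9 to 80.2), from 0 through a median of 18.4 CPM to 1142 CPM. Most L5 cells thus held either no Crh or a great deal of it. Among cells with a read, the L5 median was 371 CPM in V1 and 396 CPM in S1.

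In V1 L4, Crh was read in 5 of 42 cells (11.9%, 3.98 to 25.6), with 34, 20, 5, 3 and 1 counts, and the highest of them reached 32.95 CPM. In S1 L4 it was read in 1 of 34 cells (2.94%, 0.074 to 15.3), with 1 count. Pooled over L4 cells, Crh was at 1.19 CPM in V1 (95% Poisson interval 0.91 to 1.52) and 0.021 CPM in S1, where 1 count gives an interval from 0.00053 to 0.12. Pooled over L5 cells, it was at 255 CPM in V1 (248 to 262) and 296 CPM in S1 (288 to 304). A single cell held 2186 of the 4912 counts in V1 L5 and another 2895 of the 5734 in S1 L5, and without that cell the level was 153.7 CPM in V1 and 168.5 CPM in S1. In V1 L4, the level was 0.56 CPM without the cell with the most counts. Both L4 groups were below both L5 groups. The order of the L5 groups rested on 1 cell, since S1 without its highest cell was below V1 with all cells, and the groups overlapped over nearly their whole range of cells.

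The L4 cells with Crh were those of dates 2, 3, 5, 6 and 7. In the L4 cells of dates 7 to 9, which the layer contrast left out, Crh was read in 1 of 39 cells (2.56%, 0.065 to 13.5), and in those of dates 1 to 6 in 5 of 37 (13.5%, 4.54 to 28.8). Within dates 1 to 6 all 5 were V1 cells.

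**Figure D1:**
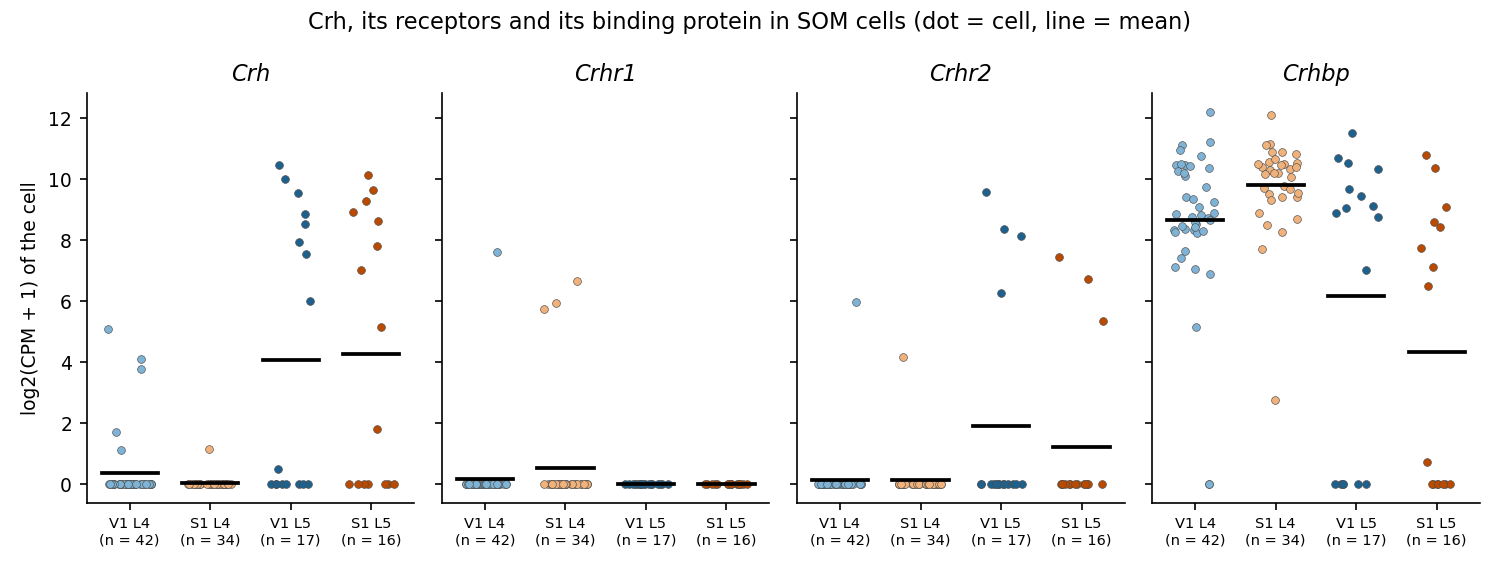
Log2(CPM + 1) of Crh, Crhr1, Crhr2 and Crhbp in each kept cell, by area and layer, with a line at the group mean. Crh is at 0 in most L4 cells and reaches 1407 CPM in L5, Crhbp is high in nearly all L4 cells and split in L5, and Crhr1 appears in 4 L4 cells.

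Over dates 3 to 6 and the L4 cells of dates 1 to 6, Crh averaged 4.18 in 33 L5 cells and 0.43 in 37 L4 cells on the log2(CPM + 1) scale, a difference of 3.75 with an SD of 1.97 over 4 dates. The difference was 5.02, 5.60, 2.35 and 1.57 on dates 3, 4, 5 and 6, so it was positive on each and its size varied widely. Of 8921 genes that had 32 or more counts in at least 10 of these cells, 0.93% were higher by 2 or more in L5 with the same sign on every date, and Crh held the third rank among genes with a consistent sign. As the contrast chose the gene, nothing is read from that rank. The difference was 3.33 within V1 and 4.28 within S1, where V1 L4 averaged 0.75 and S1 L4 was 0 in those dates.

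Between areas, the Crh differences were smaller than their spread over dates. S1 minus V1 was 0.20 in L5 (SD 2.36 over 4 dates), with S1 higher on 2 dates and lower on 2. Without date 4 it was -1.02, and without date 5 it was 1.44. In L4 it was -0.34 (SD 0.41 over 5 dates).

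Crhr1, the receptor with the highest affinity for CRH, was rare in these cells. It was read in 1 of 42 V1 L4 cells (2.38%, 0.060 to 12.6), at 195 CPM, and in 3 of 34 S1 L4 cells (8.82%, 1.86 to 23.7), at 53.1, 60.9 and 101.1 CPM. None of 17 V1 L5 and 16 S1 L5 cells had a read, and 0 of 33 L5 cells allows a share of up to 9.09%. The median was 0 in every group and the lowest value was 0, so the level rests on 4 cells. These 4 cells held 61 to 237 counts, each well above 1 count. They came from dates 2, 7 and 9.

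All 4 cells with Crhr1 also had Crhbp, at 309 to 2292 CPM, and none had Crh. With Crhbp read in 74 of 76 L4 cells and Crh in 6, most L4 cells of any kind shared that pattern. On the log2(CPM + 1) scale, Crhr1 differed by -0.16 between L5 and L4 (0 without date 2), and by 0.36 between S1 and V1 in L4 with an SD of 0.79 over 5 dates. It had too few reads for the filter used to count genes.

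Crhr2, the receptor that prefers urocortins, had a different distribution from Crhr1. It was read in 4 of 17 V1 L5 cells (23.5%, 6.81 to 49.9), with a lowest value of 0, a median of 0 and a highest of 772 CPM. In S1 L5 it was read in 3 of 16 cells (18.8%, 4.05 to 45.6), up to 173.1 CPM, and in L4 in 1 cell of each area, at 62.7 CPM in V1 and 16.9 CPM in S1. The pooled L5 level was 110.3 CPM in V1 and 29.97 CPM in S1, beside L4 levels of 2.48 CPM in V1 and 0.35 CPM in S1. Crhr2 averaged 1.57 in L5 and 0.16 in L4 of dates 1 to 6 on the log2(CPM + 1) scale. The difference of 1.41 had an SD of 0.44 and was positive on 4 of 4 dates, but most L5 cells had no read. On dates 3, 4 and 6 the positive sign rested on 1 L5 cell each, with a read in 0 L4 cells. On date 5, 4 of 9 L5 cells and 1 of 5 L4 cells had a read. The gene passed neither the filter on counts nor the threshold of 2. A single V1 L5 cell held 1199 of the 2127 counts of that group, and without it the pooled level there was 52.3 CPM. In S1 L5 a single cell held 322 of 581 counts, and the level without it was 14.8 CPM.

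Each of the 9 cells with Crhr2 also had Crhbp, at 129.5 to 2966 CPM with a median of 698 CPM. In L5, where only 20 of 33 cells had Crhbp, all 7 Crhr2 cells were among those 20. Of the 7, 2 also had Crh.

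Crhbp, the binding protein, was the most widely read of the 3 genes and was high in L4. In V1 L4 it was read in 40 of 42 cells (95.2%, 83.8 to 99.4), from 0 through a median of 447 CPM to 4733 CPM. In S1 L4 it was read in 34 of 34 cells (100%, 89.7 to 100), from 5.81 through 1185 to 4447 CPM. In V1 L5 it was read in 11 of 17 cells (64.7%, 38.3 to 85.8), from 0 through 478 to 2966 CPM. In S1 L5 it was read in 9 of 16 cells (56.2%, 29.9 to 80.2), from 0 through 45.5 to 1781 CPM. The ranges of the 4 groups overlapped, and L5 held more cells with no read than L4.

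Among cells with a read, the median in L4 was 460 CPM for V1 and 1185 CPM for S1, and in L5 it was 698 CPM for V1 and 344 CPM for S1. Over all dates, cells with a read thus had less Crhbp in L5 than in L4 in S1, and more in V1, by their medians. In L4 of dates 1 to 6 alone, the median was 979 CPM for V1 and 1244 CPM for S1. By these values, cells with a read had less Crhbp in L5 than in L4 in both areas. The order of pooled levels from high to low was S1 L4 with 1175 CPM (1165 to 1184), V1 L4 with 916 CPM (908 to 924), V1 L5 with 779 CPM (767 to 792) and S1 L5 with 350 CPM (342 to 359). The first and last of these are the same area. In L4 of dates 1 to 6 alone, the pooled level was 1252 CPM in V1 and 1225 CPM in S1, so the order of the L4 groups was the other way.

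On the log2(CPM + 1) scale, Crhbp averaged 5.29 in L5 and 9.41 in L4 of dates 1 to 6, a difference of -4.12 with an SD of 1.19 over 4 dates. It was -5.58, -3.37, -2.94 and -3.37 on dates 3, 4, 5 and 6. Of the 8921 genes, 0.415% were lower by 2 or more in L5 with the same sign on every date, and the value of Crhbp, which this contrast chose, is given beside that share without a reading. The difference was -2.76 within V1 and -5.68 within S1.

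In the L4 cells of dates 7 to 9, which the layer contrast left out, Crhbp was read in 38 of 39 cells (97.4%, 86.5 to 99.9) with a median of 617 CPM. In L4 of dates 1 to 6 it was read in 36 of 37 (97.3%, 85.8 to 99.9) with a median of 1101 CPM. The shares were nearly equal in both sets of label dates, while the median was lower in the later set. By date, the L4 median ran from 254 CPM on date 6, with 2 cells, to 1352 CPM on date 4, with 4 cells.

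Between areas the sign of the Crhbp difference was opposite in the layers, but neither difference was called. In L4, S1 averaged 9.82 and V1 8.67, a difference of 1.15 over all cells. Within dates the difference averaged 1.43, beside an SD of 1.31 over 5 dates, with S1 higher on 4. The difference over all cells was 0.56 when the cells without an Sst read, all of S1 L4, were kept. Of 9201 genes in that comparison, 0.283% were called higher and 0.272% lower in S1, and Crhbp was not among them. Crh and Crhr1 did not pass the filter there, so they could not be called. In L5, S1 averaged 4.34 and V1 6.18, a difference of -1.85 over all cells. Within dates the difference averaged -2.47, beside an SD of 2.01 over 4 dates, with S1 lower on 3. Of 6402 genes there, 3.09% were called higher and 0.734% lower in S1. Crh and Crhbp were not among them, and Crhr1 did not pass the filter. Genes of the oligodendrocyte list, summed, were at a pooled 1147 CPM for S1 and 271 CPM for V1 in L4, and at 742 and 244 CPM in L5, so they were higher in S1 in both layers, while the sign of Crhbp was opposite. Their part in the area values was not tested.

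**Figure D2:**
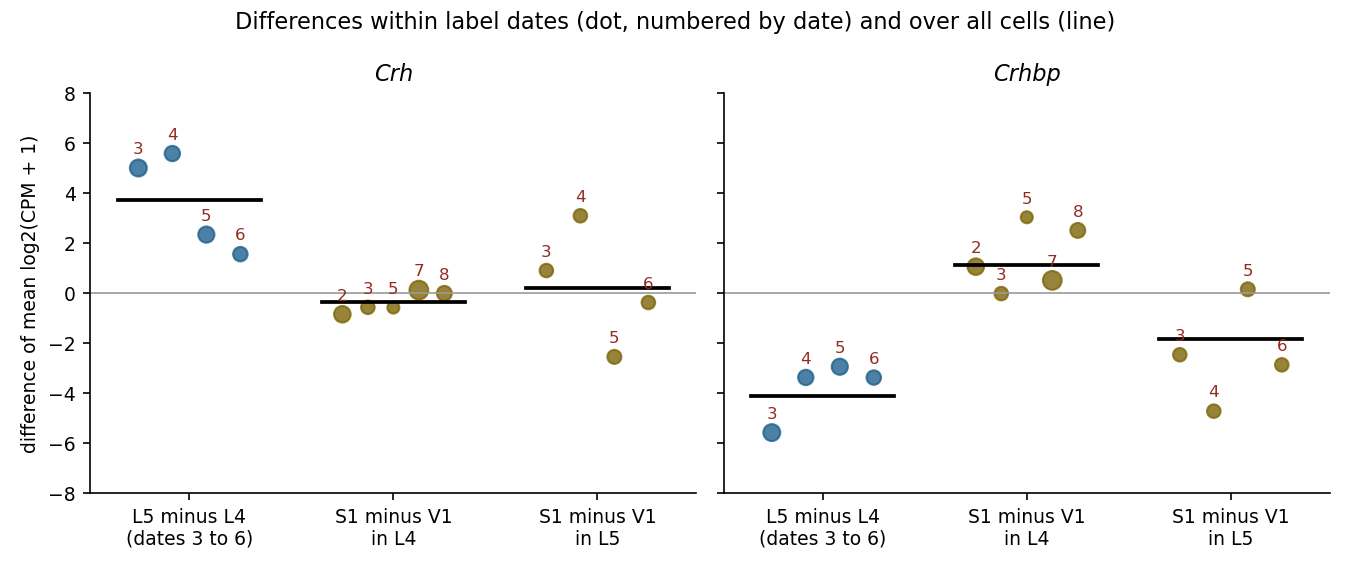
Differences of mean log2(CPM + 1) of Crh and Crhbp between layers and between areas, within each label date (dots, numbered by date, larger with more cells) and over all cells (lines). The layer differences keep 1 sign on dates 3 to 6, from 1.57 to 5.60 for Crh and from -5.58 to -2.94 for Crhbp. Each of the 4 sets of area differences holds values on both sides of 0, some of them close to 0. The only positive value for Crh in L4 is 0.13, from 1 count. For Crhbp, the only negative value in L4 is -0.01 and the only positive value in L5 is 0.16.

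Crh and Crhbp seldom stood together at high level in an L5 cell. Of the 33 L5 cells, 8 had reads of both, 10 of Crh only, 12 of Crhbp only and 3 of neither. Crhbp was read in 8 of 18 cells with Crh (44.4%, 21.5 to 69.2) and in 12 of 15 without it (80.0%, 51.9 to 95.7). These intervals overlap. This was one of the patterns for which the genes were chosen, so it is a description.

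The shares lay further apart in V1 than in S1. In V1 L5, Crhbp was read in 3 of 9 cells with Crh (33.3%, 7.49 to 70.1) and in 8 of 8 without it (100%, 63.1 to 100). In S1 L5 it was read in 5 of 9 cells with Crh (55.6%, 21.2 to 86.3) and in 4 of 7 without it (57.1%, 18.4 to 90.1), and the 3 cells with neither gene were all from S1. At 5 counts or more, and likewise at 32, the S1 shares were 37.5% and 62.5%, further apart than at 1 count. Whether V1 and S1 differ in this respect was not tested.

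By level, 14 L5 cells had Crh at 100 CPM or more, and Crhbp was read in 4 of them, at 100 CPM or more in 3. The 4 L5 cells with less Crh all had Crhbp, at 100 CPM or more in 3. Of the 15 without Crh, 12 had Crhbp at 100 CPM or more. The V1 L5 cell with the most Crh of all, at 1407 CPM, also had the most Crhbp of any L5 cell, at 2966 CPM, so high levels of both in 1 cell did occur. It was also the cell with the most Crhr2, at 772 CPM.

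Per gene length, in the deposited RPKM values, the 8 L5 cells with both genes had Crhbp above Crh in 6. The ratio of Crhbp to Crh ran from 0.0023 to 810 with a median of 2.01. In the 6 L4 cells with both, Crhbp was above Crh in all 6, by 12.04 to 414 times.

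At 5 counts or more, 5 L5 cells had both, 11 Crh only, 14 Crhbp only and 3 neither. At 32 counts or more, these were 5, 10, 14 and 4. In L4, 6 cells had both, 0 Crh only, 68 Crhbp only and 2 neither. Crh without Crhbp was therefore not met in L4. With Crhbp read in 74 of 76 L4 cells and Crh in 6, such cells could hardly be met. No difference between layers is read from their absence.

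**Figure D3:**
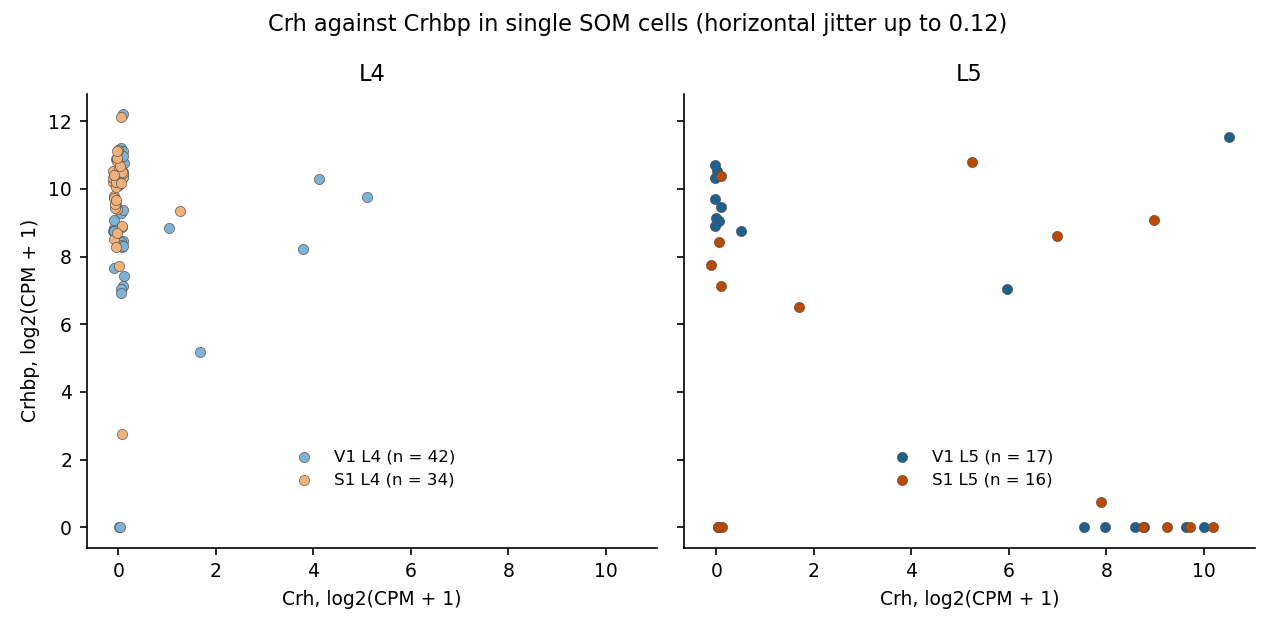
Crh against Crhbp in single cells, as log2(CPM + 1), in L4 and L5, with V1 and S1 in different colours. L4 cells line the left edge at high Crhbp, and L5 cells fall along both axes, with 10 cells at Crh only, 12 at Crhbp only and 8 between.

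The L5 cells with Crh only were spread over the dates and areas, with 3, 2, 2 and 3 of the 10 on dates 3 to 6 and 6 from V1. Total counts ran from 97904 in the Crh-only cells, from 717242 in those with both and from 379108 in those with Crhbp only, and the shallowest of these was a Crh-only cell. The median was 1165722 for Crh only and 1163822 for both, beside 1333202 for the 12 with Crhbp only. The 3 with neither gene had a median of 720824 and a lowest of 128379. Several other neuropeptides differed between the classes. Pdyn, the precursor of dynorphin, was read in 0 of 10 of them, beside 6 of 8 cells with both, 9 of 12 with Crhbp only and 3 of 3 with neither. For the Crh-only class, 0 of 10 cells allows a share of up to 30%. Npy, which encodes neuropeptide Y, was read in 5 of 10 Crh-only cells, with a lowest value of 0, a median of 3.95 CPM and a highest of 521 CPM. It was read in all cells of the other classes, with medians of 1648 CPM in cells with both and 1466 CPM in those with Crhbp only. Sst was read in every cell by selection, and its median was 509 CPM in Crh-only cells, beside 1802 CPM with both and 1667 CPM with Crhbp only, with ranges that overlapped. Cort, a relative of somatostatin, was read in 3 of 10, 6 of 8 and 9 of 12 cells in the same order. Cck, the precursor of cholecystokinin, went the other way, with 5 of 10, 2 of 8 and 1 of 12.

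Genes of SOM identity divided in the same cells. Sox6, a transcription factor of interneurons from the medial ganglionic eminence, was read in 3 of 10 Crh-only cells, 7 of 8 with both and 11 of 12 with Crhbp only. Elfn1, a synaptic protein of SOM cells, was read in 4 of 10, 7 of 8 and 11 of 12. Grin3a was read in 10 of 10, 8 of 8 and 11 of 12, and Satb1 in 10 of 10, 7 of 8 and 11 of 12. Gad1 was read in every cell of each class. Gad2 was read in 9 of 10, 8 of 8 and 12 of 12, the GABA gene Slc32a1 in 9 of 10, 8 of 8 and 11 of 12. Lhx6 was read in 7 of 10, 8 of 8 and 11 of 12. The Crh-only cells thus had Gad1 and Grin3a, and nearly all had the other GABA genes, but fewer of them had Sox6 and Elfn1. Crh-only cells of 97904 and 149024 total counts were among the shallowest of L5. The part of depth in these shares was not tested.

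Among the genes that name Sst types in a reference atlas, Rxfp1, the relaxin receptor, was read in 4 of 10 Crh-only cells, 1 of 8 with both and 0 of 12 with Crhbp only, and Sema3c, a secreted guidance protein, in 5 of 10, 3 of 8 and 0 of 12. Cbln4, a secreted synapse organizer, went the other way, with 0 of 10, 2 of 8 and 5 of 12. Crhr2 was read in 0 of 10, 2 of 8 and 5 of 12. These examples were named after their values in the classes were seen, and the plot of shares by class shows the reported list genes with a read in L5. Astrocyte genes had medians of 37.8, 34.1 and 85.0 CPM in these classes, and excitatory neuron genes of 239, 262 and 131.4 CPM, as summed levels per cell. The PV interneuron list had medians of 22.4, 30.1 and 183.5 CPM. Of its genes, Kcns3 was read in 4 of 10, 5 of 8 and 9 of 12 cells. Pvalb went the other way, with 3 of 10, 4 of 8 and 1 of 12, the last at 0.66 CPM. The higher list median of the Crhbp-only cells was therefore not one of Pvalb. The medians were 8.46, 0 and 48.2 CPM for the microglia list and 238, 163.7 and 156.6 CPM for the oligodendrocyte list. For the VIP list the medians were 205, 230 and 194 CPM. Their part in the class values was not tested.

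**Figure D4:**
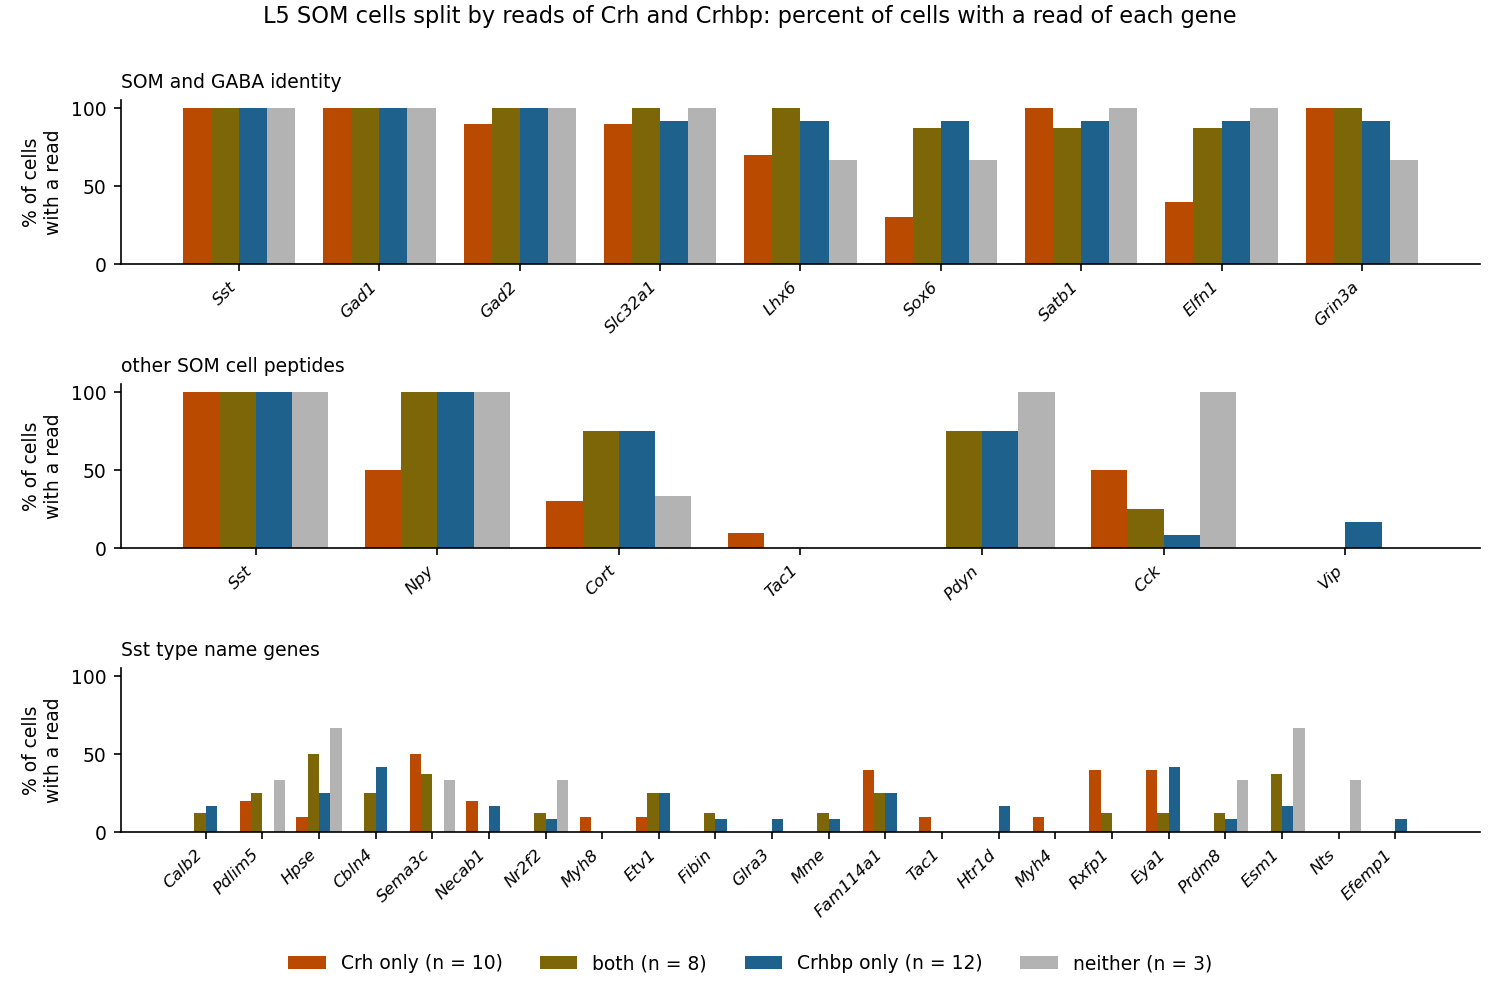
Percent of L5 cells with a read of each reported gene of the SOM identity, peptide and Sst type lists, for cells with Crh only (10), both genes (8), Crhbp only (12) and neither (3). Pdyn stands at 0 and Npy at 50% in the Crh-only cells, while Gad1 stands at 100% in every class.

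Over all kept cells, 9992 other genes were ranked by their Pearson correlation of log2(CPM + 1) with each member. The correlation is a description: cells share areas, dates and library depth, and a gene that differs between layers gains from that alone. For Crh the 8 highest were St6galnac5, a sialyltransferase gene (0.69), Tmtc2 (0.63), the secreted adhesion gene Spon1 (0.63), Lrrc4c, a netrin-G ligand at synapses (0.56), the potassium channel partner Kcnip4 (0.56), the netrin receptor Unc5d (0.53), the neuregulin receptor Erbb4 (0.52) and Lrp1b (0.52). Within the 33 L5 cells these values were 0.64, 0.68, 0.55, 0.45, 0.57, 0.36, 0.59 and 0.66. Within the 76 L4 cells, where Crh was nearly always 0, they lay between -0.12 and -0.01. The lowest were the receptor phosphatase genes Ptpru (-0.63) and Ptprd (-0.59), Crhbp itself (-0.59) and Pdyn (-0.58), with -0.70, -0.68, -0.53 and -0.68 within L5.

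For Crhbp the 8 highest were Vgf, a precursor of secreted peptides (0.67), Npy (0.60), the AMPA receptor subunit gene Gria1 (0.56), the secretory granule gene Scg2 (0.54), Rasgrf1 (0.48), Sox6 (0.46), Elfn1 (0.46) and Ptprd (0.46). Within L5 they were 0.74, 0.69, 0.61, 0.50, 0.61, 0.66, 0.63 and 0.39. Within L4, Vgf (0.38), Npy (0.37) and Scg2 (0.31) remained above 0.3, while Gria1 (0.04), Rasgrf1 (0.12), Sox6 (-0.10), Elfn1 (0.11) and Ptprd (0.12) did not. The lowest were Crh, then Tmtc2 (-0.58), the synaptic scaffold gene Dlg1 (-0.55) and the predicted gene Gm20063 (-0.54), with -0.72, -0.69 and -0.58 within L5 for the last 3 and 0.05, -0.29 and -0.28 within L4. Crh and Crhbp had r of -0.02 within L4.

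For Crhr1, whose values rest on 4 L4 cells, the 5 highest were Pm20d2 (0.43), the transcription factor gene Creb3l2 (0.33), Gga2 (0.33), Mfsd2a (0.32) and Plod1 (0.32). With so few cells above 0 these correlations are weak, and within L4 they were 0.47, 0.34, 0.36, 0.42 and 0.31. Crhr1 had r of -0.09 with Crh and 0.10 with Crhbp. None could be computed within L5, where it was always 0.

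The urocortins were nearly absent. Ucn was read in 1 kept cell, of S1 L4, with 11 counts, and Ucn3 in 0 of the kept cells, which allows a share of up to 2.75%. Ucn2 was read in 7 cells, 3 of L4 and 4 of L5, at up to 142.96 CPM. Of those 7, 5 had Crhbp, 3 had Crh and 2 had Crhr2.

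Downstream of the receptors, 26 of 27 genes of a cyclic AMP signalling list passed the filter in the layer comparison, and 0 were called in either direction. The list holds the stimulatory G protein, adenylyl cyclases, protein kinase A, factors it acts on, cyclic AMP exchange factors, arrestins and receptor kinases. Over all 8921 genes, 0.93% were called higher and 0.415% lower, so 0 of 26 is near those shares and is not read as a result. The list's median difference was 0.07, beside 0.19 over all genes. The largest increase was that of Prkacb, a catalytic subunit of protein kinase A, with 9.35 in L5 and 7.95 in L4, a difference of 1.40 (SD 0.80) that was positive on 4 of 4 dates. The largest decrease was that of the coactivator Crtc2, with -1.55 (SD 0.80), negative on 4 of 4 dates. Gnas, the G protein itself, was read in every cell. Between areas, 0 of 24 were called in L4 and 0 of 20 in L5, with medians of 0.17 and 0.02 beside 0.01 and 0.24 over all genes. Of all genes, 0.283% were called higher and 0.272% lower in S1 in L4, and 3.09% and 0.734% in L5. At such shares, nothing is read from these counts of 0 either.

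Of the enzymes that cut and finish prohormones, all 4 passed the filter in the layer comparison and 0 were called. The shares of all genes called were those given for the cyclic AMP list. No result is read from 0 calls among so few genes, here or between areas. Cpe, a carboxypeptidase, averaged 10.08 in L5 and 9.63 in L4, and Pam, which amidates peptides such as CRH, 7.89 and 8.20. The convertases were lower, with 1.48 and 2.28 for Pcsk1 and 2.35 and 3.44 for Pcsk2. The list's median difference was -0.56. In the L5 classes, Pcsk1 was read in 2 of 10 Crh-only cells, 4 of 8 with both and 5 of 12 with Crhbp only, and Pcsk2 in 6 of 10, 3 of 8 and 6 of 12. Pam was read in all cells of these 3 classes. Between areas, 0 of 4 were called in L4 and 0 of 3 in L5, with medians of -0.40 and 0.03.

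Of the stress hormone receptors and the repressor Rest, 2 of 4 passed the filter in the layer comparison and 0 were called, with a median of -0.60. Nr3c1, the glucocorticoid receptor, averaged 5.08 in L5 and 5.49 in L4. In the areas, 0 of 3 were called in L4, with a median of 1.03 beside 0.01 over all genes. In L5, 0 of 1 was called, and its 1.91 is the value of that gene alone, beside a median of 0.24 over all genes. With so few genes, no result is read from the counts of 0 or from these medians.

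In the layer comparison, where 0.415% of all genes were called lower and 0.93% higher, 1 of 4 peptide genes that passed the filter was called, Pdyn, which averaged 5.01 in L5 and 8.23 in L4, a difference of -3.22. Within dates the difference averaged -4.96 with an SD of 0.20 and was negative on 4 of 4. Of 9 identity genes 1 was called, Sox6, with 4.31 in L5 and 6.63 in L4 and a difference of -2.32 (SD 0.55). Of 4 type name genes 1 was called, Cbln4, with 1.41 and 4.90 and a difference of -3.49 (SD 2.67). The medians of these lists were -0.98, -0.14 and -1.98. All 3 genes were thus lower in the layer in which Crhbp was read in fewer cells. Between areas, none of the peptide or identity genes was called. Of 5 type name genes that passed the filter in L4, 1 was called, Calb2, a calcium-binding protein. It averaged 0.94 in S1 and 3.37 in V1 and was lower on 5 of 5 dates, where 0.272% of all genes were called lower.

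Genes of other cell types were read too. In the layer comparison, 2 astrocyte genes passed the filter and neither was called, with a list median of -1.14 beside 0.19 over all genes. The difference was -1.34 for Aldoc (-3.46 within dates, negative on 4 of 4) and -0.94 for Slc1a2 (-2.25 within dates, negative on 3 of 4). In the layer comparison, Npas1 of the VIP interneuron list was called higher in L5, with 6.37 beside 3.81, as 1 of 2 that passed the filter, while Vip stayed near 0. None of 1 excitatory neuron, 1 PV interneuron, 2 astrocyte, 4 oligodendrocyte and 6 microglia genes that passed was called. In that comparison 0.93% of all genes were called higher and 0.415% lower. In the L5 area comparison, 3.09% of all genes were called higher in S1. Igf1 was called higher there as 1 of 2 VIP list genes that passed the filter. The myelin gene Mbp was called higher as 1 of 2 oligodendrocyte genes that passed. The VIP list, summed per cell, reached 986 CPM in L4 and 992 CPM in L5. The pooled PV list was at 67.7 CPM for V1 and 139.1 for S1 in L4, and at 96.5 and 165.9 in L5. The pooled astrocyte list was at 561 and 385 CPM in L4 and at 177.5 and 190.3 in L5, again V1 first, the microglia list at 264 and 222, then 576 and 154.8, and the excitatory list at 376 and 272, then 200.3 and 310. Among the defining genes, Syt2 of the PV list was at 0 in every group but S1 L5. The part of these genes in the Crh and Crhbp values was not tested.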

How the data were processed

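Patch-seq cDNA, made by a Smart-seq2-based protocol without strand information, was sequenced from 1 end. The authors aligned reads to mm10 with STAR (2.4.2a, per the labels, after bcl2fastq 2.20) and deposited read counts per gene, without normalization; the counter and its gene models are not given in the sources used here. The deposited RPKM values were computed by the authors with rpkmforgenes and RefSeq models, and were used here for levels between genes and as an alternative.

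Entries with the same symbol were summed (24490 entries, 23998 symbols). Groups and dates came from the labels of 118 cells, of which 109 were kept. A gene was called with a difference of mean log2(CPM + 1), pseudocount 1, of at least 2 and the same sign on every date, among genes with 32 or more counts in at least 10 of the cells compared. Intervals are 95% Clopper-Pearson for shares and 95% Poisson for pooled counts. The limit for a count of 0 is 3 counts. Named genes are the members, the other ligands and receptor, every gene of the pathway and marker lists that was called, and the 8 highest and 4 lowest correlations with Crh and Crhbp and the 5 highest with Crhr1, among genes with 32 or more counts in at least 10 kept cells. Other examples from the lists were chosen after their values were seen. Of the list symbols, 2 were found under an older name and 1 had no entry. One gene of the Sst type list is not reported here. Crh, Crhbp, Crhr1, the lists and the contrasts were chosen with earlier results of these data known. No test was run, since a group is 1 sample.

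Alternatives changed the pseudocount, scale, depth, cell filters, dates and read threshold. Leaving out the cell with the most counts of a gene was added after seeing the data. The code was tested on simulated data. Coordinates and sequence are from GENCODE on GRCm38. Tools were Python 3.11.15, pandas 2.3.3, numpy 2.4.6, scipy 1.17.1, R 4.3.3 and, for the TMM factors, edgeR 4.0.16.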

Additional observations from a re-analysis of the deposited data

Results flagged for a closer look

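The Crhbp difference between L5 and L4 on date 3, -5.58 on the log2(CPM + 1) scale, lay far below those of the other 3 dates, which were between -3.37 and -2.94. A check of this kind marks about 1 in 20 groups by chance. Without date 3 the difference over all cells was -3.68.

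Reads of the genes also appeared in cells that the filters left out. A V1 L4 cell of date 3 with fewer than 1500 detected genes had Crhbp at 1350 CPM. A V1 L5 cell of date 5 with more Slc17a7 than Gad1 and Gad2 reads, and so taken as glutamatergic, had Crh at 40.8 CPM and no Crhbp count. Of the 4 S1 L4 cells without an Sst read, the cell of date 3 had Crhbp at 327 CPM and that of date 5 at 335 CPM, while the other 2 had none.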

How the results depend on the processing

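The layer differences of Crh and Crhbp kept their sign under all alternatives run. Over 9 alternatives other than left-out dates, the L5 minus L4 difference of Crh lay between 2.4 and 5.09 and that of Crhbp between -5.37 and -2.83, where the ends were set by pseudocounts of 10 and 0.1 CPM, which change the weight of cells with 0 reads by construction. With each date left out in turn, Crh lay between 3.25 and 4.29 and Crhbp between -4.56 and -3.68. In L4, S1 minus V1 lay between -0.53 and -0.17 for Crh and between 0.88 and 1.38 for Crhbp with a date left out, and the latter between 0.56 and 1.43 under the other alternatives, with the lower end when cells without Sst reads, all of S1 L4, were kept. In L5 these ranges were -1.02 to 1.44, with the lower end without date 4 and the upper without date 5, and -2.59 to -1.46.

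The Crh area difference in L4 was -0.75 on dates 1 to 6 and 0.06 on dates 7 to 9, both on the log2(CPM + 1) scale. At 32 counts or more, Crh was found in 2.38% of V1 L4 cells, and at 5 counts or more, at 32 or more, or with cells thinned to 250000 reads, in 0% of S1 L4 cells. Cells with both genes numbered 3 in L4 and 5 in L5 at 5 counts or more, and 1 and 5 at 32 or more. With 1 count as the lower filter, 242 genes were called higher and 53 lower in S1 L5, and the other counts of calls were as given. Moves were judged by the spread or counting interval of a value, and for counts of cells with both genes or of called genes by a fixed fold limit. Of the values without a test that answer a comparison, 130 moved by less than that and 10 by more, and 0 called values changed sign. Of the others, among them the layer differences within an area, Crhr1 and the pooled levels, 52 moved by more and the rest by less. Pooled levels without the cell with the most counts were computed after seeing the data.

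No paired analysis was possible because the labels name no animal and replicate numbers only name cells. Depth limits what a 0 means in a cell: thinning left out 3 L5 cells as too shallow. Crhr1 and Crhr2 rest on few cells, and 33 L5 cells from 4 dates set the precision of every L5 value.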
